A study of Mus musculus with 8 samples.

Results

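The mitosis and spindle genes are 40 mouse genes that drive or carry out cell division. The list was taken by name, with earlier results of these data known. They cover the mitotic cyclins and kinases, the spindle checkpoint, spindle motors, kinetochore proteins, condensins and proteins of cytokinesis and anaphase onset. Each gene was represented by the transcript cluster (the array's unit for a gene) annotated to its symbol, or by the brightest on average where there were several. A cluster was found for 38 of the 40 genes, and all 38 counted as measured, meaning that the highest of the 8 signals reached 4.86 on the log2 scale. Over the whole array 19505 genes had a cluster and 10871 counted as measured. The signals of Ccnb1 and Foxm1 were not analysed here.

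The arrays came from bone marrow cells of C57BL6/J mice in 4 cultures, each sampled on day 3 and day 6 of treatment, with 1 array per culture and day. The PSS1-LMS and PSS1-WT cultures received M-CSF, RANKL and, 1 day after treatment began, a retrovirus for mutant or wild-type PSS1. The M-CSF+RANKL culture received 50 ng/ml M-CSF and 100 ng/ml RANKL, and the M-CSF culture received 50 ng/ml M-CSF only, so that all 8 groups shared M-CSF. M-CSF keeps macrophage precursors alive and dividing, and RANKL turns them into osteoclasts, the multinucleate cells that resorb bone. PSS1, encoded by Ptdss1, is a phosphatidylserine synthase. The labels do not give the mutation in PSS1-LMS, the species of the insert or whether the other cultures received an empty vector. Nothing in the labels says that groups came from separate animals, so p-values measure only how far differences varied between cultures and days, and each array of 500 ng RNA stands alone for its group.

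The cultures carried the markers of their labels. All 6 osteoclast markers, Acp5, Ctsk, Mmp9, Calcr, Dcstamp and Atp6v0d2, were above background on the 6 arrays with RANKL, with summed linear signals of 3020876 to 3403845. On the M-CSF arrays none was above background on day 3 and only Atp6v0d2 was on day 6, with sums of 124 and 6196. The 7 macrophage markers with a cluster summed to 86714 to 111263 with RANKL, where C1qa and Mertk or Mertk alone were within background, against 279993 on day 3 and 962616 on day 6 in M-CSF, where all 7 were above it. Of 6 neutrophil markers, 4 or 5 were above background on every day 3 array, with sums of 4117 to 7749, and none on any day 6 array, with sums of 118 to 152. Of 4 progenitor markers only Cd34 was above background, and only on the M-CSF day 3 array. B cell, T and NK cell, erythroid and stromal markers were within background on all 8 arrays. Background here is the brightest of 23 background probe sets on the same array, 5.54 to 7.13 on the log2 scale. It was highest on the M-CSF day 6 array, where 42.0% of measured genes were within it, against 23.48% to 33.41% on the other arrays. The signal of Ptdss1 on days 3 and 6 was 18.79 and 17.50 in PSS1-LMS and 18.91 and 18.06 in PSS1-WT, against 9.56 and 10.36 in M-CSF+RANKL and 10.31 and 10.33 in M-CSF.

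Cells enter mitosis when Cdk1, joined to cyclin B, is switched on by the Cdc25 phosphatases. Polo and Aurora kinases then build the spindle, condensins compact the chromosomes, kinetochores tie them to microtubules, and the spindle checkpoint holds the cell until all are attached. The anaphase promoting complex with Cdc20 then destroys the cyclins and securin, and centralspindlin, Ect2 and anillin direct cytokinesis. Most of these genes are transcribed only late in the cell cycle. Their promoters are known for CCAAT boxes, which bind NF-Y, and for the cell cycle genes homology region (CHR), which binds complexes built on MuvB: a repressor with pocket and E2F proteins in resting cells, and an activator with B-Myb and FoxM1 in dividing ones. Precursors that become osteoclasts leave the cell cycle and fuse.

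Promoter windows of 300 bases, 250 before to 50 after the RefSeq start (GRCm38.p6), were at hand for 33 of the 40 listed genes, Ccnb1 among them. The CHR letters TTTGAA or TTCGAA, on either strand, occurred in 25 of the 33 windows (75.8%), against 19.4% of all 27025 windows in the table. CCAAT, on either strand, occurred in 24 of the 33 (72.7%), against 37.9% of all windows. At least 2 CCAAT boxes were found in 15 windows (45.5%, against 12.2%), and both motifs in 22 (66.7%, against 7.7%). The median GC content was 59.0% in the 33 windows and 52.7% in all. In 23 of the windows with CHR letters a copy lay within 60 bases before the start or after it. The windows of Nuf2, Nusap1, Ncaph, Mad2l1, Pttg1 and Birc5 held neither motif. A match is only a match of letters, and no binding was measured.

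The 150 bases before the start are shown for 6 genes with CHR letters whose signals were much lower with RANKL, and for Nusap1, which was as low and had neither motif. The 6 were picked for their CHR letters and large differences, so they cannot show whether letters and differences go together, which was not tested. Among genes with a window, the largest differences were in Nusap1 and Ncaph, which held neither motif. Capitals mark the CCAAT box, which reads ATTGG where it lies on the other strand, and, in Prc1, the first 5 letters of a CHR copy that runs across the start.
Cenpa (chr5:30666736-30666885, plus strand): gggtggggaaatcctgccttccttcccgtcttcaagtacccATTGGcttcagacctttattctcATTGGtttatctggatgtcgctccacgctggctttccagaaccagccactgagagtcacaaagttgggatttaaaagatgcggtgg
Ndc80 (chr17:71526858-71527007, minus strand): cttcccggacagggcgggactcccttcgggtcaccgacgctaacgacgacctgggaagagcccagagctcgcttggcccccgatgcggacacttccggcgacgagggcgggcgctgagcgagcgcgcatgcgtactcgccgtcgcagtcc
Racgap1 (chr15:99651657-99651806, minus strand): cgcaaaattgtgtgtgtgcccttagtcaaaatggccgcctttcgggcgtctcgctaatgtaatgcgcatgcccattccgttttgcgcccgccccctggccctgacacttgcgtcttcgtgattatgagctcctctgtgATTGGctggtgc
Kif23 (chr9:61946800-61946949, minus strand): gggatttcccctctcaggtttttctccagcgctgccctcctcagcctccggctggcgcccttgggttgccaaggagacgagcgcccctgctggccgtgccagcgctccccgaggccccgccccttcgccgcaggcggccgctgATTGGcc
Plk1 (chr7:122159285-122159434, plus strand): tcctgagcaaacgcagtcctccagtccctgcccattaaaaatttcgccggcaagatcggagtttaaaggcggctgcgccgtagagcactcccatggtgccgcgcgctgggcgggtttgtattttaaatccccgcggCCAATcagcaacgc
Prc1 (chr7:80294301-80294450, plus strand): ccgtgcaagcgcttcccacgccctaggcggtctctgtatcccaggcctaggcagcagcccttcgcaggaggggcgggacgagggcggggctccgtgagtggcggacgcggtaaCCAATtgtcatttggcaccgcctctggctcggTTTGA
Nusap1 (chr2:119618148-119618297, plus strand): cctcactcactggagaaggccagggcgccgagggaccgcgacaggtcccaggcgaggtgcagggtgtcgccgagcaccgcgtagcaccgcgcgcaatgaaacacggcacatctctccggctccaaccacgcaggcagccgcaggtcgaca

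The 26 bases around the CHR copy of the same 6 genes follow, with the CHR letters in capitals (TTCAAA where they lie on the other strand). In 5 of the 6 genes they began after the start, at position 3 in Kif23, 6 in Racgap1, 17 in Cenpa, 30 in Ndc80 and 31 in Plk1, counting the start as 1.
Cenpa (chr5:30666892-30666917, plus strand): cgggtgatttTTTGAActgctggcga
Ndc80 (chr17:71526813-71526838, minus strand): aactttaaaaTTCAAAccgccttggg
Racgap1 (chr15:99651636-99651661, minus strand): ggtgcgtgatTTTGAAccggatctgg
Kif23 (chr9:61946782-61946807, minus strand): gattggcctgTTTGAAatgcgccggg
Plk1 (chr7:122159455-122159480, plus strand): cagcgccgcgTTTGAAttcggggagg
Prc1 (chr7:80294436-80294461, plus strand): tctggctcggTTTGAAttccgcgggg

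The first comparison was that of osteoclast cultures with macrophage cultures, M-CSF+RANKL minus M-CSF. The mitosis and spindle genes were lower with RANKL together. The difference averaged over days was below zero for all 38, with a median of -1.76 on the log2 scale, beside 0.03 over all measured genes. By limma with Benjamini-Hochberg adjustment over all measured genes, 23 of the 38 fell and none rose, where 12.4% of all measured genes fell and 14.1% rose. On day 3 the median difference was -2.50 and 37 of 38 genes differed by at least 2-fold downward with RANKL, against 16.4% of all genes. On day 6 the median was -1.04 and 20 of 38 did, against 17.6% of all genes. These 3 counts include Cenpf, whose signals were within background on all 8 arrays; over the other 37 genes they were 22, 36 and 19. Single-day differences rest on 1 array a side and were not tested. In RNA of whole cultures, fewer dividing cells and less of the RNA per cell cannot be told apart.

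**Figure D1:**
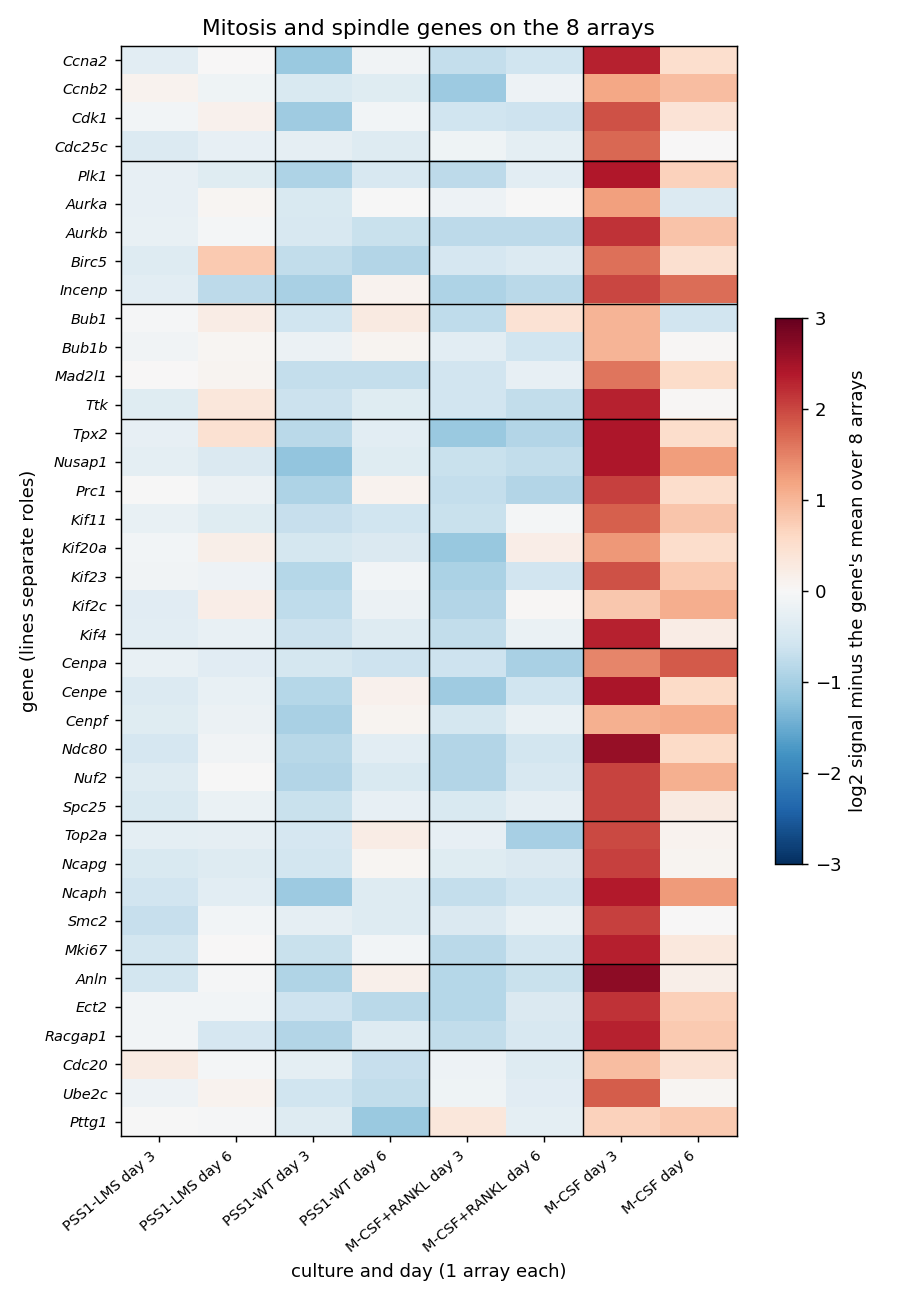
Each cell gives the log2 signal of 1 gene on 1 array minus the mean of that gene over the 8 arrays, with cultures and days along the horizontal axis and genes, grouped by role, down the page. The M-CSF day 3 column is the highest of the 8 for 34 of 38 genes, and the 6 columns with RANKL lie mostly below zero.

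Both M-CSF arrays lay above all 6 arrays with RANKL for 31 of 38 genes (30 of 37 without Cenpf), against 20.8% of all genes. The groups overlapped for Aurka, Birc5, Bub1, Bub1b, Ttk, Top2a and Ube2c, in each case through the M-CSF day 6 array. The M-CSF day 3 array was the highest of the 8 for 34 of 38 genes, again beside 20.8% of all genes, and the exceptions were Kif2c, Cenpa, Cenpf and Pttg1. The count of 23 moved widely when 1 array was left out, of the M-CSF+RANKL culture or of the M-CSF culture, as given at the end. The size of the difference moved too: with 1 array left out, the median over the 38 genes ran from -2.67 to -0.96. The fit's error holds any day change that differed between cultures, and such changes were large here.

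Among the cyclins and their kinase, Ccna2, Ccnb2 and Cdk1 fell with RANKL and Cdc25c, a phosphatase that activates Cdk1, did not pass. Ccna2, cyclin A2, had 10.79 and 11.11 in PSS1-LMS, 9.98 and 10.98 in PSS1-WT and 10.38 and 10.51 in M-CSF+RANKL, against 13.41 and 11.60 in M-CSF (day 3 and day 6 in each pair). Its difference with RANKL was -2.06 ± 0.60 (SE; adjusted p = 0.038). Both M-CSF signals were above the other 6. Cdk1 had 7.95 and 8.15 in PSS1-LMS, 6.96 and 7.93 in PSS1-WT and 7.42 and 7.40 in M-CSF+RANKL, against 9.94 and 8.43 in M-CSF. On average the difference was -1.77 ± 0.53 (SE; adjusted p = 0.0443). Cdk1 did not pass under 6 of the 17 alternative fits. Its M-CSF day 6 signal was closer to the signals with RANKL than to the M-CSF day 3 signal. Ccnb2, cyclin B2, had a difference of -1.68 ± 0.37 (SE; adjusted p = 0.0125). The signals of Cdc25c were 4.92 and 5.09 in PSS1-LMS, 5.07 and 4.95 in PSS1-WT and 5.22 and 5.05 in M-CSF+RANKL, against 7.07 and 5.35 in M-CSF, of which only that of M-CSF day 3 was above background. It was thus at least 2.09-fold lower with RANKL on day 3, and its difference was -1.08 ± 0.47 (SE; adjusted p = 0.135).

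Of the mitotic kinases and the chromosomal passenger complex, which corrects faulty kinetochore attachments, Incenp, Aurkb and Plk1 fell. Incenp, the scaffold of that complex, had 7.19 and 6.72 in PSS1-LMS, 6.54 and 7.62 in PSS1-WT and 6.58 and 6.70 in M-CSF+RANKL, against 9.50 and 9.17 in M-CSF. This gave a difference of -2.69 ± 0.41 (SE; adjusted p = 0.00245). It was 7.58-fold lower on day 3 and 5.52-fold lower on day 6, and both M-CSF arrays stood clear of the others. Aurkb, its kinase, had 9.55 and 9.71 in PSS1-LMS, 9.31 and 9.10 in PSS1-WT and 8.99 and 8.99 in M-CSF+RANKL, against 11.95 and 10.64 in M-CSF. Averaged over days, the difference was -2.30 ± 0.40 (SE; adjusted p = 0.00462). Plk1, the polo kinase of mitotic entry, had a difference of -2.10 ± 0.53 (SE; adjusted p = 0.0227). Birc5, survivin, did not pass, at -1.52 ± 0.51 (SE; adjusted p = 0.0619). Aurka, the kinase of the spindle poles, had 8.25 and 8.56 in PSS1-LMS, 8.03 and 8.50 in PSS1-WT and 8.34 and 8.50 in M-CSF+RANKL, against 9.73 and 8.08 in M-CSF. Its M-CSF day 6 signal lay among those with RANKL, so that the difference was -1.39 on day 3 and 0.42 on day 6. The average was -0.49 ± 0.51 (SE; adjusted p = 0.546), and its sign turned to 0.49 without the M-CSF day 3 array.

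In the spindle checkpoint only Mad2l1, whose protein restrains Cdc20, passed the threshold, though all the averages were below zero. Mad2l1 had 10.97 and 11.05 in PSS1-LMS, 10.25 and 10.23 in PSS1-WT and 10.38 and 10.71 in M-CSF+RANKL, against 12.56 and 11.50 in M-CSF. The difference averaged -1.49 ± 0.39 (SE), with an adjusted p of 0.0248. Mad2l1 did not pass under 7 of the 17 alternative fits. Ttk, the Mps1 kinase that starts checkpoint signalling, had 6.87 and 7.58 in PSS1-LMS, 6.59 and 6.88 in PSS1-WT and 6.65 and 6.49 in M-CSF+RANKL, against 9.54 and 7.27 in M-CSF. Its difference was larger, -1.83 ± 0.65, but with a wider SE it did not pass (adjusted p = 0.0741). Bub1, a checkpoint kinase, had 10.68 and 10.94 in PSS1-LMS, 10.11 and 10.98 in PSS1-WT and 9.96 and 11.14 in M-CSF+RANKL, against 11.74 and 10.13 in M-CSF. The M-CSF day 3 array was the highest and the M-CSF day 6 array was lower than 4 of the 6 arrays with RANKL. Its difference was -1.78 on day 3 and 1.01 on day 6, with an average of -0.38 ± 0.62 (SE; adjusted p = 0.7) that turned to 0.81 without the M-CSF day 3 array and 0.29 without the M-CSF+RANKL day 3 array. Bub1b, BubR1 of the checkpoint complex, had a difference of -0.98 ± 0.37 (SE; adjusted p = 0.0938).

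Of the 8 spindle assembly and motor genes, 6 fell and Kif20a and Kif4 did not pass. Nusap1, which bundles spindle microtubules, had 9.10 and 8.97 in PSS1-LMS, 8.23 and 9.05 in PSS1-WT and 8.74 and 8.67 in M-CSF+RANKL, against 11.84 and 10.66 in M-CSF. Its difference with RANKL was -2.55 ± 0.45 (SE; adjusted p = 0.00497). For Nusap1 both M-CSF arrays were far above the rest. Tpx2, which activates Aurora A on the spindle, had 9.68 and 10.39 in PSS1-LMS, 9.12 and 9.61 in PSS1-WT and 8.81 and 9.05 in M-CSF+RANKL, against 12.34 and 10.45 in M-CSF. On average the difference was -2.47 ± 0.60 (SE; adjusted p = 0.0188). It was 11.6-fold lower with RANKL on day 3 and 2.64-fold lower on day 6. Its highest signal with RANKL, on the PSS1-LMS day 6 array, was just below the M-CSF day 6 signal. Kif2c, a kinesin that depolymerises microtubules, had the smallest difference among the 8, with 9.50 and 10.04 in PSS1-LMS, 9.06 and 9.67 in PSS1-WT and 8.96 and 9.87 in M-CSF+RANKL, against 10.65 and 10.92 in M-CSF. This gave a difference of -1.37 ± 0.30 (SE; adjusted p = 0.0118). Prc1, a crosslinker of the central spindle, differed by -2.10 ± 0.54, Kif23, the centralspindlin kinesin, by -2.11 ± 0.45, and Kif11, the motor that pushes the poles apart, by -1.67 ± 0.40 (SE). The motors Kif20a and Kif4 differed by -1.39 ± 0.47 and -1.74 ± 0.60 (SE; adjusted p = 0.0659 and 0.0678).

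Of the 5 centromere and kinetochore genes above background on any array, 4 fell and Spc25 did not pass. Cenpa, the histone H3 variant that marks centromeres, had 9.17 and 9.04 in PSS1-LMS, 8.86 and 8.77 in PSS1-WT and 8.76 and 8.41 in M-CSF+RANKL, against 10.85 and 11.23 in M-CSF. Averaged over days, the difference was -2.45 ± 0.31 (SE; adjusted p = 0.000883). That adjusted p was the lowest of the 38 genes, and Cenpa was 4.24-fold lower on day 3 and 7.02-fold lower on day 6. Cenpe, the kinetochore motor, had 11.22 and 11.42 in PSS1-LMS, 10.77 and 11.77 in PSS1-WT and 10.56 and 11.03 in M-CSF+RANKL, against 14.08 and 12.21 in M-CSF. The difference averaged -2.36 ± 0.62 (SE), with an adjusted p of 0.0263. The M-CSF signals were the highest, that of day 6 nearer to the arrays with RANKL. Cenpf had 4.30 and 4.50 in PSS1-LMS, 3.70 and 4.75 in PSS1-WT and 4.13 and 4.45 in M-CSF+RANKL, against 5.74 and 5.78 in M-CSF, all within the background of their arrays. Its difference of -1.47 ± 0.34 (SE; adjusted p = 0.015) lies between signals that were within background on both sides, so no direction or fold is given for it. Of the NDC80 complex, which grips microtubules, Ndc80 differed by -2.29 ± 0.61, Nuf2 by -2.23 ± 0.40 and Spc25 by -1.51 ± 0.53 (SE; adjusted p of Spc25 = 0.0729).

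Among the 5 genes of chromosome structure, the condensin subunit Ncaph and Mki67 fell. Ncaph had 8.26 and 8.52 in PSS1-LMS, 7.75 and 8.44 in PSS1-WT and 8.11 and 8.24 in M-CSF+RANKL, against 11.21 and 10.12 in M-CSF. Its difference with RANKL was -2.49 ± 0.44 (SE; adjusted p = 0.00461). Mki67, the proliferation marker Ki-67 that coats mitotic chromosomes, had 14.47 and 15.02 in PSS1-LMS, 14.34 and 14.93 in PSS1-WT and 14.19 and 14.45 in M-CSF+RANKL, against 17.35 and 15.33 in M-CSF. On average the difference was -2.02 ± 0.62 (SE; adjusted p = 0.0468). Mki67 did not pass under 9 of the 17 alternative fits. Its M-CSF day 6 signal was near the highest ones with RANKL. Smc2, the ATPase of condensin, had 8.65 and 9.26 in PSS1-LMS, 9.07 and 8.94 in PSS1-WT and 8.89 and 9.11 in M-CSF+RANKL, against 11.38 and 9.35 in M-CSF, and its difference of -1.36 ± 0.58 (SE; adjusted p = 0.132) came from day 3 (-2.49) more than day 6 (-0.24). Top2a, the topoisomerase that untangles sister DNA, differed by -1.68 ± 0.56, and the condensin subunit Ncapg by -1.47 ± 0.57 (SE; adjusted p = 0.0629 and 0.1).

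Of the cytokinesis genes, Racgap1 and Ect2 fell. Anln, anillin of the contractile ring, had 7.74 and 8.26 in PSS1-LMS, 7.40 and 8.44 in PSS1-WT and 7.43 and 7.64 in M-CSF+RANKL, against 10.98 and 8.47 in M-CSF. It showed the largest difference of the 38 genes on day 3, -3.55 or 11.7-fold, but only -0.83 on day 6, and the average of -2.19 ± 0.75 (SE) missed the threshold (adjusted p = 0.0686). Racgap1, the centralspindlin GTPase-activating protein, had 9.38 and 8.95 in PSS1-LMS, 8.57 and 9.07 in PSS1-WT and 8.71 and 8.98 in M-CSF+RANKL, against 11.76 and 10.24 in M-CSF. This gave a difference of -2.15 ± 0.49 (SE; adjusted p = 0.0142). For both Racgap1 and Ect2, the exchange factor it recruits, the M-CSF arrays were the highest. Ect2 had 9.86 and 9.87 in PSS1-LMS, 9.32 and 9.14 in PSS1-WT and 9.09 and 9.52 in M-CSF+RANKL, against 12.11 and 10.67 in M-CSF. Averaged over days, the difference was -2.09 ± 0.45 (SE; adjusted p = 0.0114).

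Of the anaphase genes only Cdc20, the activator of the anaphase promoting complex, passed the threshold, with a small difference, though all the averages were below zero. Cdc20 had 7.37 and 7.07 in PSS1-LMS, 6.84 and 6.44 in PSS1-WT and 6.97 and 6.75 in M-CSF+RANKL, against 8.06 and 7.57 in M-CSF. The difference averaged -0.95 ± 0.28 (SE), with an adjusted p of 0.0393. Cdc20 did not pass under 8 of the 17 alternative fits. Ube2c, the ubiquitin-conjugating enzyme of that complex, had 11.27 and 11.51 in PSS1-LMS, 10.81 and 10.67 in PSS1-WT and 11.29 and 11.07 in M-CSF+RANKL, against 13.23 and 11.48 in M-CSF, with a difference of -1.18 ± 0.47 (SE; adjusted p = 0.111). Pttg1, securin, was the only one of the 37 genes above background on any array that was less than 2-fold lower on day 3. It had 8.53 and 8.51 in PSS1-LMS, 8.16 and 7.44 in PSS1-WT and 8.88 and 8.25 in M-CSF+RANKL, against 9.25 and 9.34 in M-CSF. Its difference was -0.36 on day 3, -1.08 on day 6 and -0.72 ± 0.33 on average (SE; adjusted p = 0.153).

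**Figure D2:**
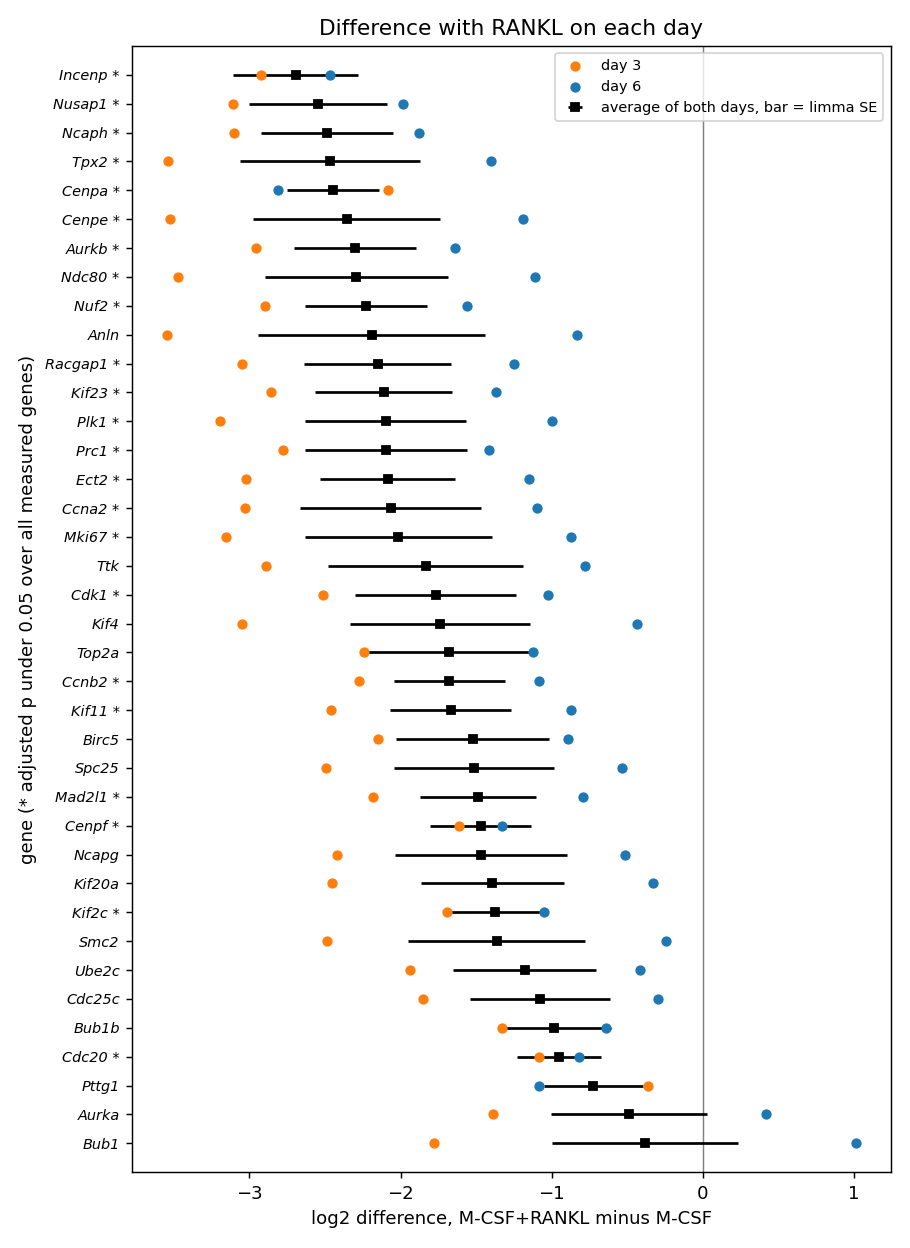
For each gene, down the page, the horizontal axis gives the log2 difference M-CSF+RANKL minus M-CSF on day 3, on day 6 and averaged over days with its SE from limma. Day 3 points lie below zero for all 38 genes, day 6 points for all but Aurka and Bub1, and 23 genes, Cenpf among them, carry the mark for an adjusted p under 0.05.

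Most of the genes moved alike over the 8 arrays, which share the contrast of M-CSF day 3 with the rest. The correlation between 2 genes had a median of 0.884 over 703 pairs and was lowest, at -0.075, between Bub1 and Pttg1. Against the mean of the other genes it ran from 0.594 for Bub1 and 0.604 for Pttg1 to 0.990 for Plk1 and 0.995 for Ndc80.

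The next comparison was day 6 with day 3, in the cultures with RANKL and in M-CSF. With RANKL the genes stayed low: the day change had a median of 0.28 over the 38 genes, beside -0.03 over all genes, and 31 of 38 were above zero. None of the 38 passed by limma over the 3 cultures with RANKL, against 3.38% of all genes, and at an unadjusted p under 0.05, 9 (8 without Cenpf) were higher and 1 lower on day 6, against 6.7% and 10.3% of all genes. Day 6 was above day 3 in all 3 cultures with RANKL for 15 of 38 genes, against 15.9% of all genes. The largest changes were in Bub1, 0.77 ± 0.22 (SE; adjusted p = 0.0722), Kif2c, 0.69 ± 0.20 (SE; adjusted p = 0.0784), and Anln, 0.59 ± 0.22 (SE; adjusted p = 0.17). The smallest were in Top2a, -0.01 ± 0.25, Aurkb, -0.01 ± 0.20, and Ube2c, -0.04 ± 0.20 (SE). Top2a had 9.26 and 9.27 in PSS1-LMS, 9.04 and 9.76 in PSS1-WT and 9.30 and 8.54 in M-CSF+RANKL, against 11.54 and 9.66 in M-CSF, so that its cultures with RANKL moved in different directions.

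In M-CSF the genes were lower on day 6 than on day 3. The change had a median of -1.52 over the 38 genes, beside 0.00 over all genes, and 34 of 38 were below zero. By culture the median change was 0.19 in PSS1-LMS, 0.46 in PSS1-WT and 0.20 in M-CSF+RANKL, against that of -1.52 in M-CSF. At least 2-fold lower on day 6 in M-CSF were 27 of 38 genes, against 12.9% of all genes, or 26 with the day 6 signal raised to background, which takes out Cdc25c. Anln was 5.69-fold lower, Ttk 4.83-fold, Kif4 4.2-fold and Ndc80 4.11-fold. Cenpa, Kif2c, Pttg1 and Cenpf were not lower, with changes of 0.38, 0.27, 0.09 and 0.04. Only 1 array stands for each day in M-CSF, so the change in that culture alone has no test.

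The difference between the day changes, RANKL minus M-CSF, could be tested if the M-CSF change is taken to vary like those of the 3 cultures with RANKL. It was above zero for 36 of 38 genes, with a median of 1.66, beside -0.03 over all genes. By limma 28 of 38 genes passed, all with a higher change with RANKL, where 9.49% of all genes passed with a higher change and 12.8% with a lower one. The largest values were 3.10 ± 0.43 for Anln (SE; adjusted p = 0.000183), 2.55 ± 0.44 for Ttk (SE; adjusted p = 0.00081) and 2.49 ± 0.40 for Mki67 (SE; adjusted p = 0.000561). All 5 genes of chromosome structure and all 3 of cytokinesis passed, as did 4 of 5 kinase and passenger genes, 4 of 6 kinetochore genes, 3 of 4 checkpoint genes and 5 of 8 spindle genes. Of the cyclin group Ccna2, Cdk1 and Cdc25c passed. Cdc25c was within background on 7 arrays, and its value of 1.68 ± 0.40 (SE) turned to -0.18 with signals raised to background. Only Ube2c passed among the anaphase genes.

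The 10 genes that did not pass were Ccnb2, Incenp, Bub1b, Kif11, Kif20a, Kif2c, Cenpa, Cenpf, Cdc20 and Pttg1. Cenpa and Pttg1 had values of the other sign, -0.57 ± 0.40 and -0.55 ± 0.43 (SE; adjusted p = 0.337 and 0.388). Incenp and Cenpa were about as far below M-CSF on day 6, by -2.47 and -2.81, as the median of the genes was on day 3. The neutrophil markers were lower on day 6 in all 4 cultures, with RANKL or without, and Cd34 was above background only on the M-CSF day 3 array; the part of these cells in the day changes was not tested.

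**Figure D3:**
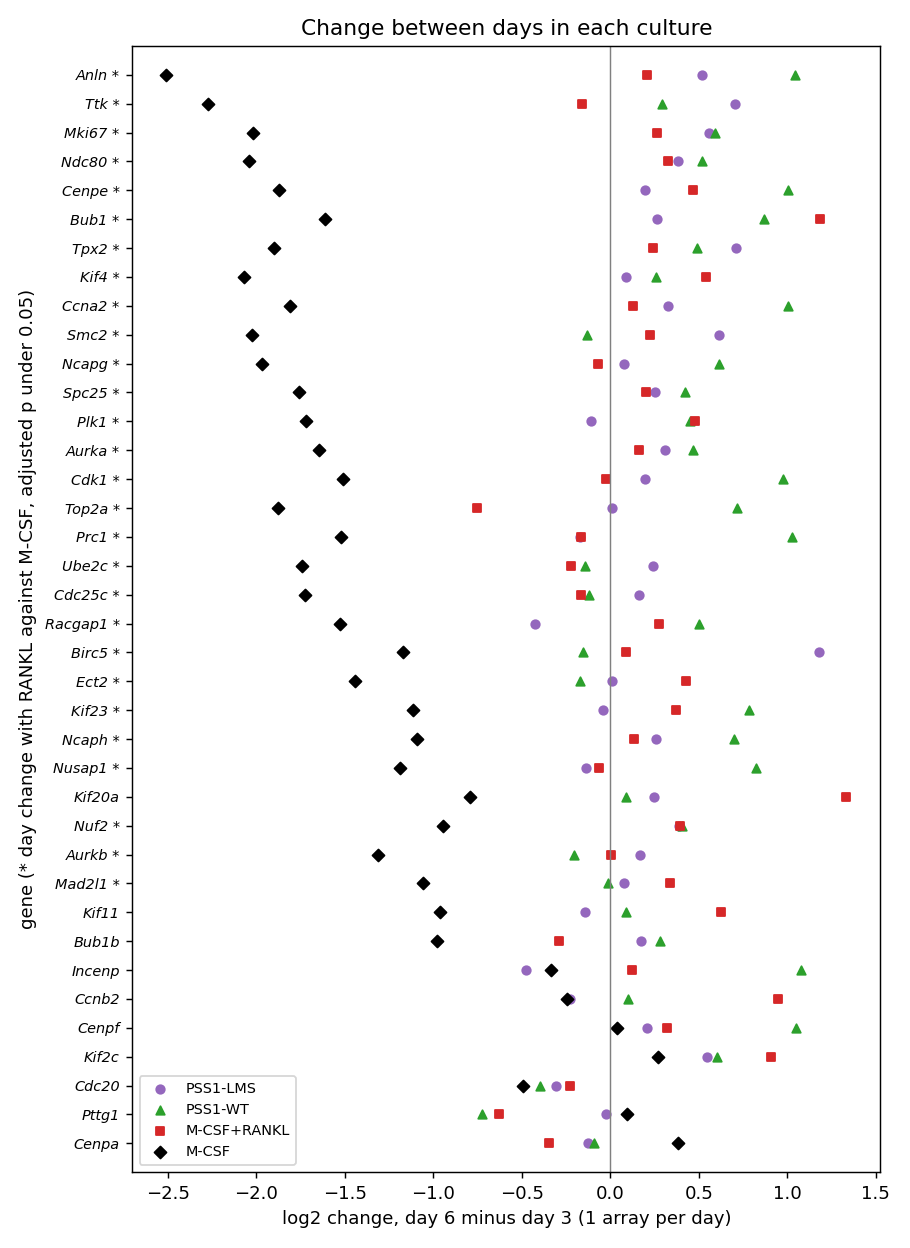
For each gene, down the page, the horizontal axis gives the log2 change from day 3 to day 6 in each culture, 1 array per day. The M-CSF points lie left of the 3 cultures with RANKL for most genes, down to -2.51 for Anln, and the genes that did not pass the test of the difference stand mostly at the foot.

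Other cell cycle lists were set beside these genes. Of 71 measured mitosis genes outside the list, 39 fell with RANKL and none rose, against 12.4% and 14.1% of all genes, with a median of -1.34. The 39 include Depdc1b, Pimreg and Psrc1, whose signals were within background on all 8 arrays, so no direction is given for them. The day change was higher with RANKL for 29 and lower for 1, Ncapg2, at -1.91 ± 0.41 (SE), against 9.49% and 12.8% of all genes. On the M-CSF day 6 array Cenpk, Cenpq, Plk4 and Trip13, among others of the 29, were within background, which limits this count. The largest falls of the list were in Ncapg2, a condensin II subunit, at -3.03 ± 0.51, Iqgap3 at -2.58 ± 0.41 and Cit, citron kinase of the midbody, at -2.36 ± 0.41 (SE). In that list Troap alone rose between the days with RANKL, by 0.90 ± 0.21 (SE; adjusted p = 0.025). Of the 17 genes of the anaphase promoting complex and its regulators, 3 fell and 1 rose, against 12.4% and 14.1% of all genes, with a median of 0.17. Its inhibitor Fbxo5 differed by -1.83 ± 0.56, Anapc13 by 1.44 ± 0.28 and Anapc5 by -1.28 ± 0.31 (SE).

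The 22 genes for the E2F, pocket, MuvB and NF-Y proteins named above had a median of -1.07, with 9 that fell and none that rose, against the same shares of all genes. The 9 include E2f1, whose signals were within background on all 8 arrays, so no direction is given for it. E2f2 differed by -3.63 ± 0.72, Rb1, the retinoblastoma protein, by -3.003 ± 0.31, and the MuvB subunit Lin9 by -1.78 ± 0.55 (SE). E2f2 and Lin9 were lower on day 6 than day 3 in M-CSF, by -3.03 and -1.96, whereas Rb1 changed by 0.52. The M-CSF day 6 signal of Lin9, 6.74, was within background, so the size of its change is uncertain. The day change was higher with RANKL for 10 of the 22 genes and lower for 1, against 9.49% and 12.8% of all genes. Mybl2, for B-Myb, had the largest such value, 3.23 ± 0.42 (SE; adjusted p = 0.000103 by limma). Its RANKL difference was 0.77 ± 0.77 (SE; adjusted p = 0.525). The M-CSF day 6 signal of Mybl2, 6.68, was within background, so these sizes are uncertain. Among 12 measured G1 cyclins, kinases and inhibitors 4 fell and none rose, against 12.4% and 14.1% of all genes. They were led by Cdkn1a, the inhibitor p21, at -3.28 ± 0.38, Ccnd3, cyclin D3, at -3.27 ± 0.28, and Cdkn2c, the inhibitor p18, at -2.26 ± 0.39 (SE). Of the 4 that fell, Ccnd3 was the only driver of the cycle and the others were inhibitors. Cdkn1a was the gene of that list that rose between the days with RANKL, by 0.81 ± 0.20 (SE; adjusted p = 0.0391).

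Of 25 measured DNA replication genes, Pcna (-2.46 ± 0.46) and Tk1 (-1.51 ± 0.46, SE) fell and none rose, against 12.4% and 14.1% of all genes, and the median of the average difference was -0.84. Tk1 was above background only on the M-CSF day 3 array, so the size of its difference is uncertain. By day, with 1 array a side, the median was -2.04 on day 3 and 0.40 on day 6, where those of the mitosis genes were -2.50 and -1.04. The change between days in M-CSF had a median of -1.74, and 20 of 25 passed for a higher day change with RANKL and none for a lower one, against 9.49% and 12.8% of all genes, led by Mcm10 at 3.62 ± 0.40, Mcm2 at 3.05 ± 0.42 and Mcm4 at 2.996 ± 0.51 (SE). On the M-CSF day 6 array the signals of Gins1, Cdc6, Cdc45 and Pole, among others, were within background, which limits this median and count. Mcm2, a subunit of the replicative helicase, had 9.47 and 8.98 in PSS1-LMS, 8.85 and 8.83 in PSS1-WT and 8.88 and 8.95 in M-CSF+RANKL, against 11.72 and 8.53 in M-CSF. Its M-CSF signal was the highest of the 8 arrays on day 3 and the lowest on day 6. The difference between the lists was not tested.

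**Figure D4:**
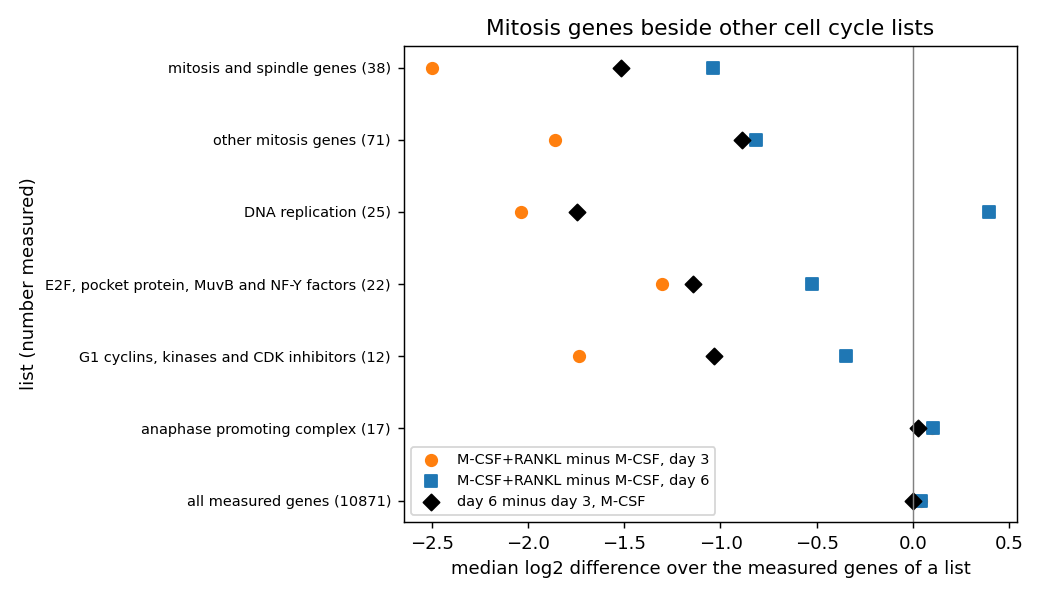
Each line is a gene list with its number of measured genes, and the horizontal axis gives the median log2 difference over the list for M-CSF+RANKL minus M-CSF on day 3 and day 6 and for day 6 minus day 3 in M-CSF. The mitosis and spindle genes lie at -2.50, -1.04 and -1.52, and the DNA replication genes at -2.04, 0.40 and -1.74.

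The last comparisons were between the cultures with RANKL and share arrays: PSS1-LMS and PSS1-WT were each set against the M-CSF+RANKL culture and against each other. No mitosis or spindle gene passed in any of the 3. Of the 38 differences between PSS1-LMS and M-CSF+RANKL 33 were above zero, with a median of 0.38, beside -0.02 over all genes. On both days 25 of 38 were above, against 23.2% of all genes. None passed, beside 0.175% of all genes, and 8 were higher at an unadjusted p under 0.05, where 3.42% of all genes were. Other lists stood above zero too, with medians of 0.31 for the other mitosis genes (60 of 71), 0.31 for DNA replication (23 of 25) and 0.62 for the macrophage markers (5 of 7), and of -0.12 for the osteoclast markers. The macrophage markers summed to 96294 and 90147 in PSS1-LMS, against 109303 and 86714 in M-CSF+RANKL (days 3 and 6), a sum that is mostly Csf1r. Their part in the result was not tested. Tpx2 had the largest difference, 1.10 ± 0.25 (SE; adjusted p = 0.138), 0.87 on day 3 and 1.34 on day 6. It passed under 5 of 13 other settings. Prc1 had 8.67 and 8.50 in PSS1-LMS, 7.76 and 8.79 in PSS1-WT and 7.96 and 7.79 in M-CSF+RANKL, against 10.73 and 9.21 in M-CSF, with a difference of 0.71 ± 0.30 (SE; adjusted p = 0.703). Its M-CSF+RANKL and PSS1-LMS signals lay apart on both days. Ttk differed by 0.65 ± 0.27 (SE; adjusted p = 0.684), mostly on day 6.

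Between PSS1-WT and M-CSF+RANKL the median difference was 0.00, 19 of 38 genes were above zero, and 9 were above on both days, where 18.8% of all genes were. None passed, beside 0.0092% of all genes, and at an unadjusted p under 0.05 only Pttg1 was lower, where 4.88% of all genes were. Pttg1 differed by -0.77 ± 0.26 (SE; adjusted p = 0.655), being lowest in PSS1-WT on both days. Top2a differed by 0.48 ± 0.31 and Cenpe by 0.48 ± 0.26 (SE; adjusted p = 0.773 and 0.734). The Top2a value came from day 6 and turned to -0.077 without the M-CSF+RANKL day 6 array and -0.062 without the PSS1-WT day 6 array.

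Set against PSS1-WT, PSS1-LMS had a median difference of 0.34, with 24 of 38 genes above on both days, where 33.1% of all genes were. None passed, as none of all measured genes did (0%), and 8 were higher at an unadjusted p under 0.05, where 4.89% of all genes were. The macrophage markers had a median of 0.65 here, with 6 of 7 above zero. Birc5 had 7.82 and 8.996 in PSS1-LMS, 7.48 and 7.33 in PSS1-WT and 7.72 and 7.81 in M-CSF+RANKL, against 9.87 and 8.70 in M-CSF. It differed most, by 1.001 ± 0.30 (SE; adjusted p = 0.534), through a high PSS1-LMS day 6 signal. Mad2l1 and Pttg1 followed at 0.77 ± 0.25 and 0.72 ± 0.26 (SE; adjusted p = 0.585 and 0.598).

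**Figure D5:**
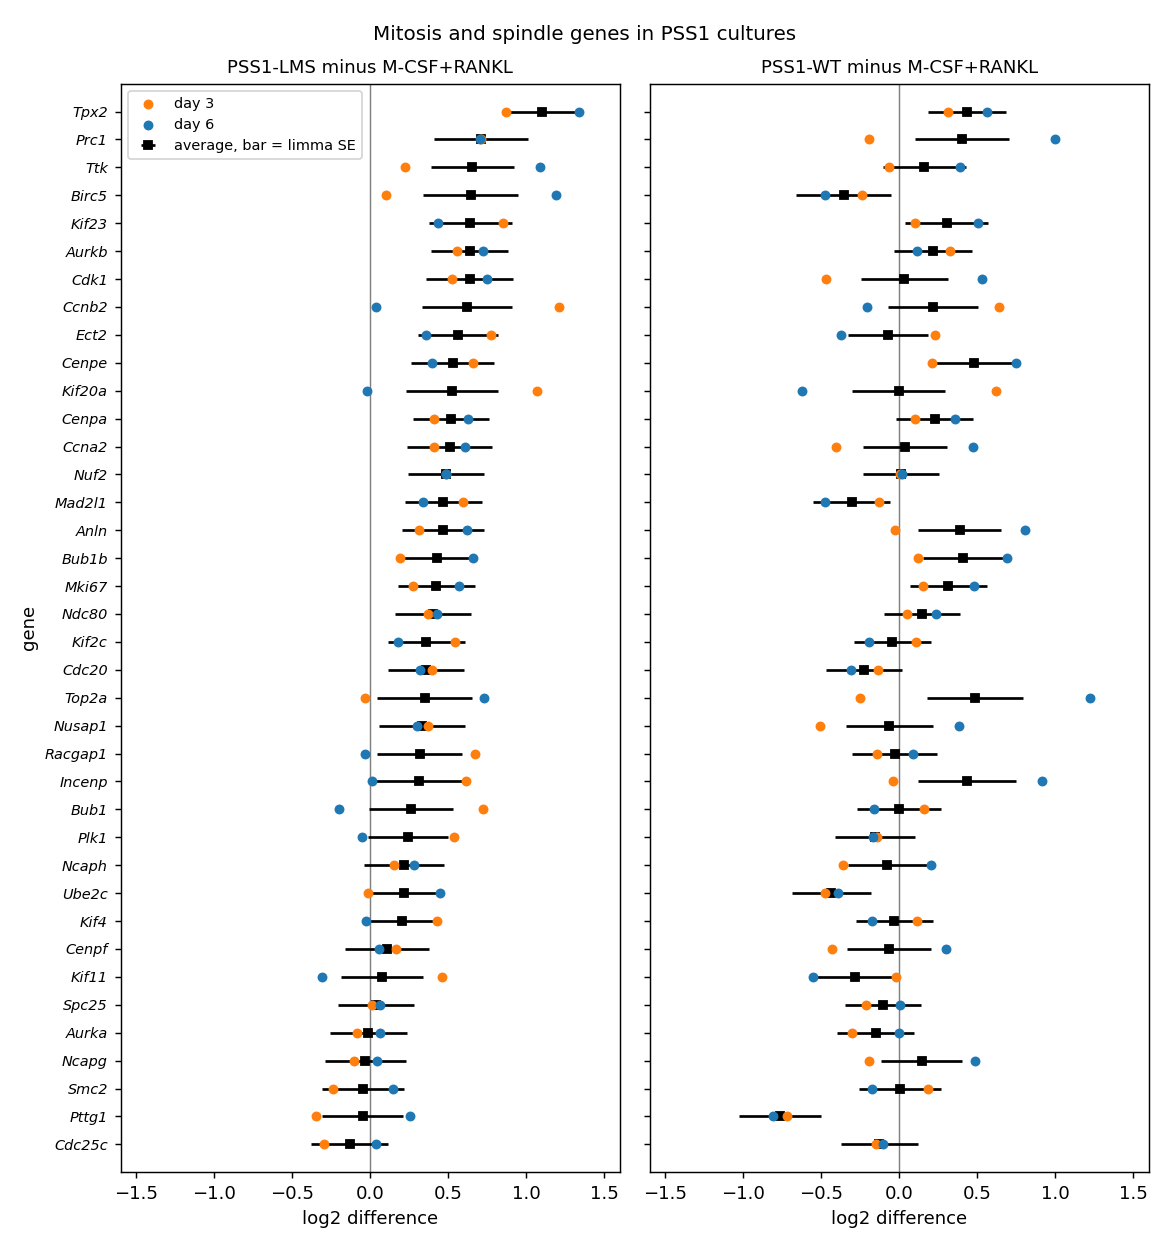
For each gene, down the page, the horizontal axes give the log2 difference from the M-CSF+RANKL culture of PSS1-LMS (left) and PSS1-WT (right) on day 3, on day 6 and on average with its SE from limma. With PSS1-LMS 33 of 38 averages lie above zero, led by Tpx2 at 1.10, and with PSS1-WT 19 do.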

How the data were processed

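RNA from 8 bone marrow cultures was measured on Affymetrix arrays. The table the authors deposited gives a log2 signal for each of 28846 features, and 22142 of these are transcript clusters; that the scale is log2 was read from the values, and the summarising and scaling of the arrays are not given in the sources used here. Signals were used as deposited, and no p-values were taken from the authors. A single symbol was attached to 19572 clusters, for 19505 genes, and a gene with several clusters was represented by the one with the highest mean. Genes whose highest signal reached the 50th percentile of the table (4.86) were kept, which left 10871.

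Linear models were run in limma 3.58.1 (lmFit, then eBayes; R 4.3.3) across all measured genes, with Benjamini-Hochberg adjustment over them and a threshold of 0.05. The RANKL fit used all 8 arrays with day as an additive term (3 residual degrees of freedom). The M-CSF arrays were left out of the fits of the day effect and of the PSS1 cultures, and the difference between day changes was fitted on all 8 arrays (2 residual degrees of freedom each). Tested on simulated data of 10871 genes, 50 of them changed by each size, a log2 change of 2 was recovered for 24 genes in the RANKL fit, 26 in the difference between day changes, 50 in the day effect, 50 in PSS1-LMS and in PSS1-WT and 49 in PSS1-LMS against PSS1-WT, and a change of 1 for 0, 4, 28, 16, 19 and 25. Having only 8 arrays limits how precise any value is. The alternatives were other scalings, filters, variance models and sets of arrays, and each array left out in turn.

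The genes and lists were chosen with earlier results of these data known. Every gene is named at least once. Signals on every array are given for the 2 genes of each role with the largest RANKL difference and the one with the smallest, and for the 3 with the largest or smallest differences between days with RANKL and the 3 with the largest in each PSS1 comparison. Other lists are represented by up to 3 genes past the threshold with the largest difference. Further genes of these lists are named where their signals were within background. Promoters, from RefSeq, are those of 6 genes past the threshold with CHR letters and of 1 without, taken by largest difference among genes with a window. No window was at hand for Foxm1, Ccna2, Tpx2, Incenp, Aurkb, Kif20a and Cdc25c.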

Additional observations from a re-analysis of the deposited data

Results flagged for a closer look

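The day change with RANKL differed from the day change in M-CSF for 28 of the 38 genes by limma's test of the difference, on the log2 scale and with RANKL higher in each. The value was 3.10 for Anln, 2.55 for Ttk, 2.49 for Mki67, 2.45 for Ndc80, 2.43 for Cenpe, 2.38 for Bub1, 2.38 for Tpx2, 2.37 for Kif4, 2.29 for Ccna2, 2.26 for Smc2, 2.18 for Ncapg and 2.05 for Spc25. It was 1.99 for Plk1, 1.96 for Aurka, 1.89 for Cdk1, 1.87 for Top2a, 1.75 for Prc1, 1.70 for Ube2c, 1.68 for Cdc25c, 1.64 for Racgap1, 1.54 for Birc5, 1.53 for Ect2, 1.49 for Kif23, 1.46 for Ncaph, 1.40 for Nusap1, 1.34 for Nuf2, 1.30 for Aurkb and 1.19 for Mad2l1. All rest on a single M-CSF array per day. Cdc25c was within background on 7 arrays, and its value turned to -0.18 with signals raised to background.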

How the results depend on the processing

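Each array carries a whole group, so leaving 1 out weighs heavily. The count of the 38 genes lower with RANKL, 23, ran from 2 to 37 with 1 array left out (2 without M-CSF+RANKL day 3, 8 without M-CSF+RANKL day 6, 37 without M-CSF day 6) and from 21 to 33 under the other settings. With 1 array left out the RANKL difference ran from -1.47 to 0.49 for Aurka, positive without M-CSF day 3, and from -1.58 to 0.81 for Bub1, positive without M-CSF day 3 and (0.29) without M-CSF+RANKL day 3. The count for the day effect, 0, was 2 when only genes above the brightest background of any array were kept, 1 with signals raised to background, 1 with an intensity trend, and 0 to 1 with 1 array left out. Day effects near zero turned sign: with quantile normalization Aurkb was 0.042, Top2a 0.061 and Ube2c 0.0040. With 1 array left out Aurkb ran from -0.101 to 0.087, Top2a from -0.37 to 0.36 and Ube2c from -0.18 to 0.050, Top2a and Ube2c being positive without an M-CSF+RANKL array and Aurkb and Ube2c without a PSS1-WT array. With all 8 arrays, which brings in the M-CSF culture, Anln was -0.19 and the median of the 38 genes -0.17. The count for the difference between day changes, 28, stayed between 24 and 30; with signals raised to background Cdc25c was -0.18 and Cenpf -0.96, and leaving out either M-CSF array could not be fitted. The count for PSS1-LMS, 0, was 1 (Tpx2) with genes above the brightest background or signals raised to background, and 0 to 1 with 1 array left out. That for PSS1-LMS against PSS1-WT was 0 to 1 with 1 array left out (Birc5), and that for PSS1-WT stayed 0. The PSS1-WT value of Top2a ran from -0.077 to 1.04 with 1 array left out, negative without M-CSF+RANKL day 6 or PSS1-WT day 6. Over all measured genes the counts ran, for RANKL (2875), from 1198 to 4545 with 1 array left out and from 2063 to 3586 otherwise. For the day effect (367) they ran from 270 to 678 and from 31 to 534, for PSS1-LMS (19) from 11 to 83 and from 1 to 56, for PSS1-WT (1) from 3 to 61 and from 1 to 8, and for PSS1-LMS against PSS1-WT (0) from 0 to 48 and from 0 to 31. The cause of these shifts was not tested. No paired analysis was possible because the labels give no replicate numbers and each group is 1 array; day or culture is already a term of the fits. Cenpf on 8 arrays and Cdc25c on 7 were within background.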
